A study of Mus musculus with 13 samples.

Results

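Lysosomes hold the acid hydrolases that take apart proteins, sugars and lipids delivered by endocytosis, phagocytosis and autophagy, and 33 genes of this compartment were followed in early B cell progenitors that overexpress the coactivator OBF1. The genes were taken by their known function, with earlier results of these data known: 7 cysteine proteases, 3 other proteases, 7 glycosidases, 7 genes of lipid breakdown and transport, 5 genes of lysosomal membrane proteins, 2 subunits of the proton pump, the transcription factor gene Tfeb and the progranulin gene Grn. Of 34 listed genes, 33 had at least 1 probe set annotated to that gene symbol alone, out of 18193 such genes on the array, and each was read by its brightest such probe set. Cd63, a tetraspanin gene, is not analysed here.

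The arrays were made from EPLMs, progenitors with lymphoid and myeloid potential that were sorted from bone marrow with B220, CD117 and CD93 among the markers of the gate. RNA of 3 wild type (WT) and 3 BCS mice was hybridized, with 1 mouse on each Affymetrix mouse GeneChip. All mice were 7 weeks old and of the B6CF1 x C57BL/6 background. BCS mice carry, in addition to their own gene, a human OBF1 cDNA with an HA tag under the mouse Eμ enhancer and an immunoglobulin VH promoter, which are active in B cells from an early stage, and which of the transgenic lines was hybridized is not given in the sources used here. The values are the GCRMA intensities deposited by the authors, on a linear scale on which each array has a median of 20. A gene is said below to have risen or fallen where limma, fitted to log2 of the intensity plus 1 over all 45037 probe sets of the 6 arrays, gave a Benjamini-Hochberg adjusted p under 0.05, and SE is the standard error of the log2 change. Intensities of different probe sets are not on a common scale of RNA amount, so levels are not compared between genes. Sums over a list of genes are compared only between arrays, and the brightest probe sets weigh most in such a sum.

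Lysosomal hydrolases are made in the endoplasmic reticulum, tagged with mannose 6-phosphate and sorted to an organelle that the vacuolar proton pump keeps acidic. Cathepsins and the other proteases cut proteins, which in antigen-presenting cells also prepares peptides for MHC class II, while glycosidases, lipases and the Niemann-Pick proteins clear sugars, sphingolipids and cholesterol. TFEB and its relatives TFE3, MITF and TFEC bind the CLEAR element in the promoters of many of these genes. The full CLEAR element is a longer site with the E-box CACGTG as its core.

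The promoters of the lysosomal genes were searched for CACGTG and for longer forms of it. RefSeq (GRCm38.p6) gave the 250 bases before and the 50 bases after the start for 29 of the 33 genes, in 34 promoters, and none was listed for Ctsb, Ctsh, Npc1 and Asah1. CACGTG, which reads the same on both strands, was found in 11 of the 29 genes (37.9%), against 10.2% of the 14452 genes of the array with a promoter. The longer TCACGTGA, which contains CACGTG, was found in 6 of the 29 genes (20.7%), against 1.63%. The full CLEAR element, the longest form searched, was found in 0 of the 29 genes, against 0.574% of the genes of the array. At so low a share, 0 of 29 genes does not show a difference. The matches reported here are thus to the core and to TCACGTGA, not to the full element. The octamer ATGCAAAT, the site through which OBF1 acts with Oct1 and Oct2, was searched on both strands and matched in 0 of the 29 genes, against 1.68% of the genes of the array, which says only that these letters are not in this window. A match is a description of sequence and does not show that a factor binds there. The 3 genes with CACGTG that fell in BCS EPLMs, Lamp1, Ctsa and Ctsl, and 3 that did not pass the test, Mcoln1, Ctsd and Gla, are shown in stretches of 100 bases, 5′ to 3′ on the strand of the gene, with CACGTG in capitals.
Lamp1, bases -100 to -1, chr8:13159061-13159160, + strand: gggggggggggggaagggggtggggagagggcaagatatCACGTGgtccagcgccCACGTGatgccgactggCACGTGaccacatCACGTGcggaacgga
Ctsa, bases -100 to -1, chr2:164833673-164833772, + strand: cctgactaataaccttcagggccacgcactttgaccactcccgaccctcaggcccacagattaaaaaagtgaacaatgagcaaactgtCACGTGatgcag
Ctsl, bases -250 to -151, chr13:64370671-64370770, - strand: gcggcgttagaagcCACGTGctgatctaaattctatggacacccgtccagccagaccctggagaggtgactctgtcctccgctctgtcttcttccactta
Mcoln1, bases -100 to -1, chr8:3500419-3500518, + strand: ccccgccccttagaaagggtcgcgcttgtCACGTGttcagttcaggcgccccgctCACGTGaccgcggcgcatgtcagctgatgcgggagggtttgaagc
Ctsd, bases -120 to -21, chr7:142387848-142387947, - strand: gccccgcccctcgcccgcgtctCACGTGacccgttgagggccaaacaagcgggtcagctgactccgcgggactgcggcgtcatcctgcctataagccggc
Gla, bases -250 to -151, chrX:134601156-134601255, - strand: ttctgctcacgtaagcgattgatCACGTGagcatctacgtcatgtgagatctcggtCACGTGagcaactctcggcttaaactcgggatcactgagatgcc

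Lamp1 carried CACGTG 4 times within these 100 bases, Mcoln1 and Gla carried it 2 times, and Ctsa, Ctsl and Ctsd had 1 copy in the stretch shown. The remaining genes with CACGTG were Atp6v0d1, Atp6v1a, Glb1, Lgmn and Naglu, which did not pass the test either. Thus 3 of the 11 genes with CACGTG fell in BCS EPLMs, with a median log2 change of -0.39. Of the 18 genes with a promoter and no CACGTG in it, 9 fell and 1 rose, with a median of -0.57. Over all genes of the array, 4.70% fell and 3.15% rose. Glb1, Mcoln1, Naglu and Gla with CACGTG, and Smpd1, Tfeb and Neu1 without it, had a WT mean intensity under 1000. None of these 7 genes passed. The difference between both groups of genes was not tested.

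The arrays were checked before the lysosomal genes were compared. Arrays of 1 genotype correlated with r from 0.993 to 0.9947 across probe sets and arrays of different genotypes with r from 0.9845 to 0.988, and genes are not independent replicates. Pou2af1, the mouse gene for OBF1, had intensities of 6278, 7250 and 3400 on the WT arrays and of 10784, 10858 and 10323 on the BCS arrays. Its log2 change was 0.99 (SE 0.23, limma adjusted p = 0.0436), a call that was lost without WT replicate 1 and without each BCS replicate (adjusted p from 0.0599 to 0.132) and with robust variances or no intensity trend, and whether the probe set reads the human transgene is not known. Kit, which encodes CD117 of the gate, had a log2 change of -0.01 and Cd93 of 0.29, neither of which passed. Ptprc, which encodes B220 among other forms of CD45, fell by 0.40. The Ptprc call was lost with the t-test of the paper's methods, with no intensity trend and at an adjusted p under 0.01. It was also lost without WT replicate 2 and BCS replicate 2 together (limma adjusted p = 0.108). Markers of granulocytes differed widely between mice of 1 genotype. Their 10 measured genes had a summed intensity of 24366, 101857 and 27254 on the WT arrays and of 9503, 70147 and 46209 on the BCS arrays. None of these 10 genes passed. WT replicate 2 thus stood above the other WT arrays, and BCS replicate 1 lay below the other BCS arrays. The counts of lysosomal genes are also given without the highest array of each genotype, replicate 2 in both.

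Lysosomal genes were lower in BCS EPLMs. Of the 33 genes, 15 fell, led by the cathepsin genes Ctsh, Ctsl and Ctsb and by Cd68, which lost more than 1.6 on the log2 scale, and 1 rose, the palmitoyl-protein thioesterase gene Ppt1. Over all 18193 genes, 4.70% fell and 3.15% rose, whereas 45.5% of the lysosomal genes fell. Among the 4880 genes with a WT mean intensity over 1000, a level that 26 of the lysosomal genes reached, 10.0% fell and 4.84% rose, and all 15 genes that fell and Ppt1 were among these 26. Among genes above the array median on at least 1 array of each genotype, as all 33 lysosomal genes were, the shares were 7.39% and 4.92%. The median log2 change was -0.50 over the lysosomal genes and 0.01 over all genes. Mean intensities were lower in BCS EPLMs for 30 of the 33 genes, the exceptions being Ppt1, Lgmn and Gla. The ranges of the 3 WT and the 3 BCS arrays did not overlap, with BCS lower, in 24 of the 33 genes. This held for 14.2% of all genes and for 18.9% of those above the array median on at least 1 array of each genotype.

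**Figure D1:**
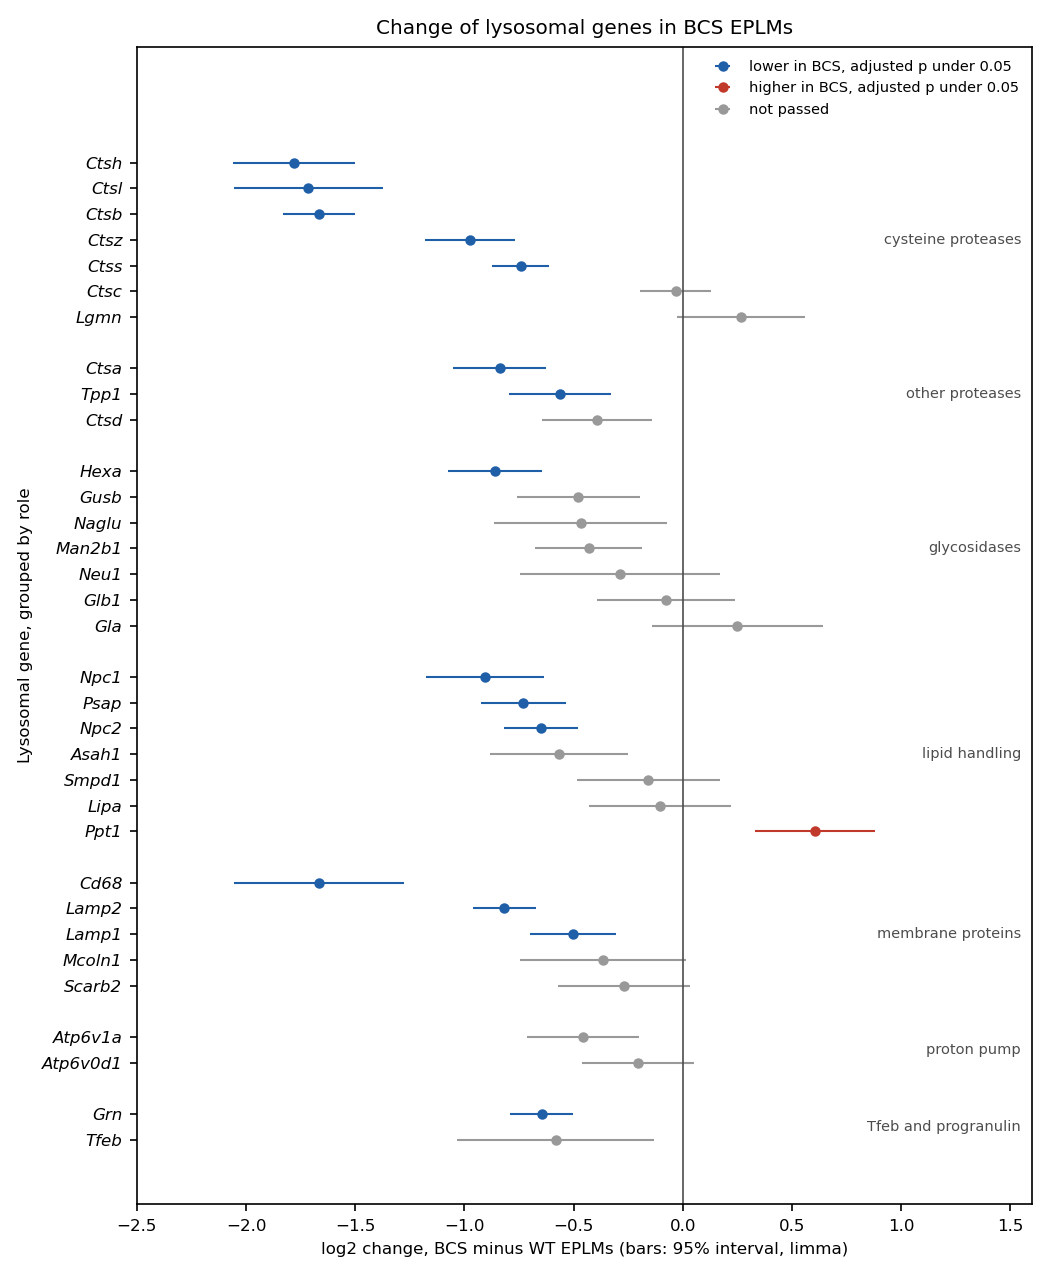
Log2 change (BCS minus WT EPLMs) of the 33 lysosomal genes, grouped by role, with 95% intervals from limma as bars and 3 arrays of each genotype; the 15 genes that fell lie left of 0 and Ppt1 is the 1 gene that rose. The changes reach from -1.78 for Ctsh to 0.60 for Ppt1.

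The call depended on how the spread of a gene was estimated. With the methods' t-test, which takes the spread from the 6 values of 1 gene alone, 3 of the 15 calls passed after Benjamini-Hochberg adjustment. These were Ctsb, Ctss and Lamp2, and 83 of all 18193 genes fell. At the thresholds of the methods, an unadjusted p under 0.01 and medians at least 2-fold apart, 5 lysosomal genes were lower, Ctsb, Ctsh, Ctsl, Cd68 and Npc1, and 0 were higher, against 1.82% and 0.918% of all genes. Without WT replicate 2 and BCS replicate 2, limma called 13 lysosomal genes lower and 0 higher, the calls of Lamp1, Tpp1 and Ppt1 being lost. The same fit called 358 of all 18193 genes lower and 272 higher.

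The cysteine proteases held 5 of the 15 falls. Cathepsins B, H, L, S and Z fell, 5 of 7 genes, while cathepsin C and legumain did not pass. Ctsb, which encodes an endo- and exopeptidase abundant in phagocytes, had intensities of 19455, 19062 and 19133 on the WT arrays and of 6483, 5447 and 6295 on the BCS arrays. Every BCS array thus lay well below every WT array, and the log2 change was -1.67 (SE 0.07, limma adjusted p = 1.24e-05). Ctsh, the aminopeptidase cathepsin H, had intensities of 12106, 13284 and 14033 in WT and of 3780, 3210 and 4575 in BCS EPLMs, again without overlap. It had the largest change of the 33 genes, -1.78 on the log2 scale (SE 0.12, limma adjusted p = 9.69e-05). Ctsl, an endopeptidase, had intensities of 6064, 7878 and 7882 in WT and of 2708, 1958 and 2005 in BCS EPLMs. Its log2 change was -1.71 (SE 0.15, limma adjusted p = 0.000344), and its ranges did not overlap although WT replicate 1 lay below the other WT arrays.

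Ctss and Ctsz moved less. Cathepsin S is known for cutting the MHC class II invariant chain in antigen-presenting cells, and Ctss had intensities of 22685, 24561 and 24192 in WT and of 14478, 13329 and 14913 in BCS EPLMs. The groups were well apart, with a log2 change of -0.74 (SE 0.06, limma adjusted p = 0.000169). Ctsz, a carboxypeptidase, had intensities of 10224, 11246 and 10767 in WT and of 5814, 4775 and 5859 in BCS EPLMs, and fell by 0.98 (SE 0.09, limma adjusted p = 0.000459). Ctsc, which encodes the dipeptidyl peptidase that activates granule serine proteases, stood in contrast, with 7135, 7809 and 7431 in WT and 7559, 6796 and 7534 in BCS EPLMs. Its groups overlapped, and its log2 change of -0.03 had a 95% interval from -0.20 to 0.13 (limma adjusted p = 0.876), so that a fall of the size of Ctsz lay outside its interval. Lgmn, which encodes the asparaginyl endopeptidase legumain, had intensities of 1021, 1125 and 1096 in WT and of 1378, 1138 and 1396 in BCS EPLMs. The BCS arrays were the higher ones here without overlap, but the log2 change of 0.27 did not pass (95% interval -0.03 to 0.56, limma adjusted p = 0.325).

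**Figure D2:**
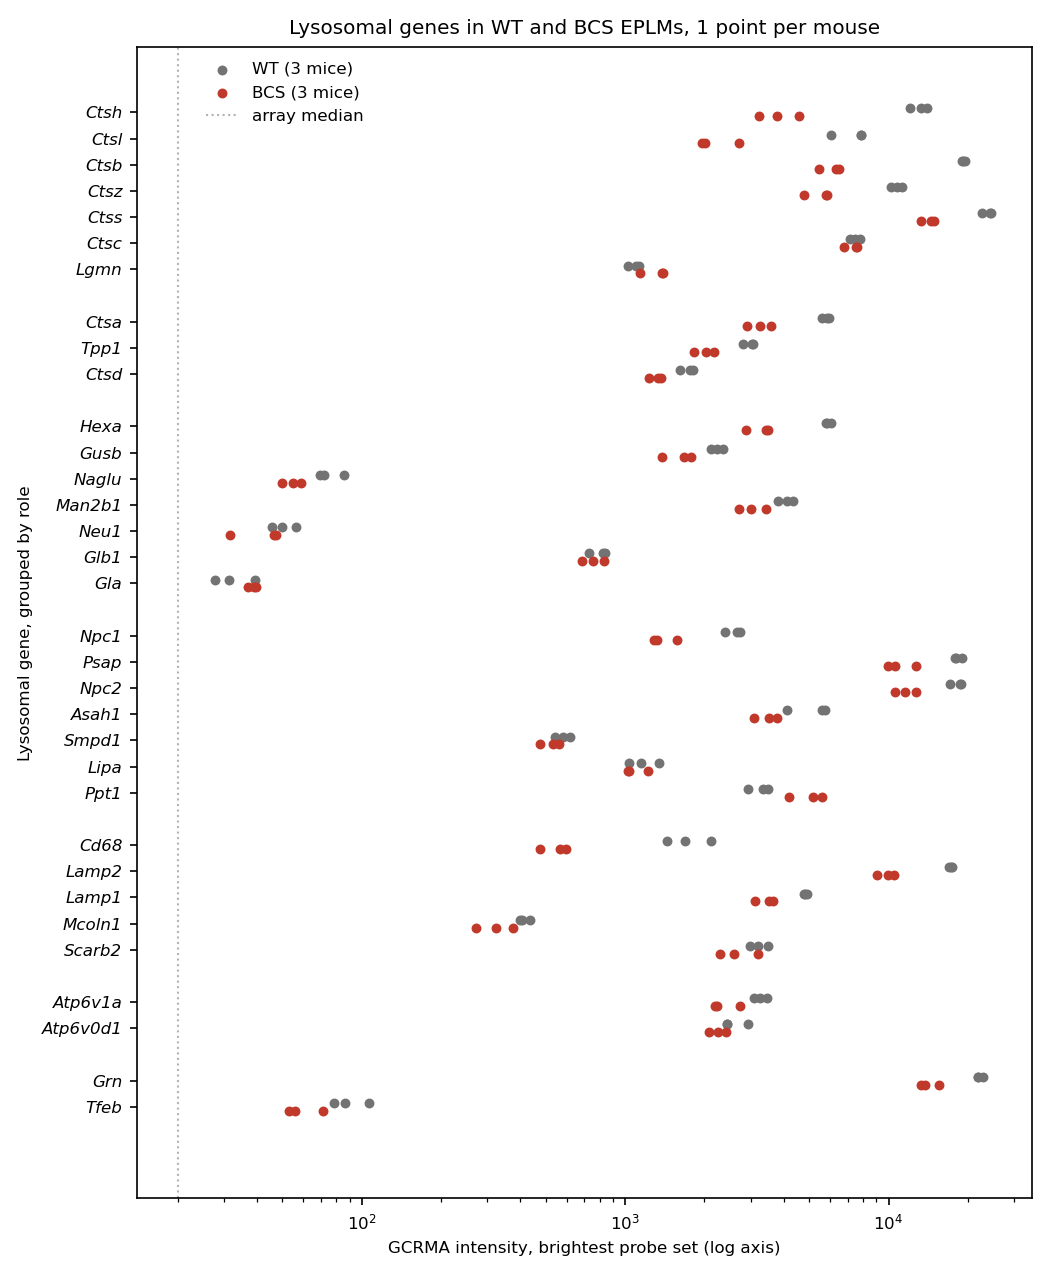
Intensity of each lysosomal gene on each of the 6 EPLM arrays, on a log axis, with 1 point per mouse and genes grouped by role. For Ctsb the 3 BCS points lie between 5447 and 6483 and the 3 WT points between 19062 and 19455, whereas the points of both genotypes overlap for Ctsc.

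Of the other proteases, the carboxypeptidase gene Ctsa and the tripeptidyl peptidase gene Tpp1 fell, and the aspartic protease gene Ctsd did not pass. Ctsa, whose product also protects β-galactosidase and neuraminidase in a complex, had intensities of 5604, 5925 and 5865 in WT and of 3582, 2914 and 3262 in BCS EPLMs. The ranges were apart, and the log2 change was -0.84 (SE 0.09, limma adjusted p = 0.00115). The mean of its probe sets, of which 1 lay below the array median on all 6 arrays, did not pass (log2 change -0.35). Tpp1 had intensities of 2802, 3048 and 3030 in WT and of 2167, 1827 and 2026 in BCS EPLMs, a log2 change of -0.56 (SE 0.10, limma adjusted p = 0.0149) that no longer passed without WT replicate 2, WT replicate 3 or BCS replicate 2 (adjusted p from 0.0559 to 0.0673). Ctsd had intensities of 1759, 1811 and 1610 in WT and of 1373, 1330 and 1237 in BCS EPLMs, also without overlap. Its log2 change was -0.39 (95% interval -0.65 to -0.14, limma adjusted p = 0.0850).

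Among the 7 glycosidases only Hexa, the gene for the α subunit of β-hexosaminidase, which degrades GM2 ganglioside, passed the test. Its intensities were 5806, 5833 and 6042 in WT and 3426, 2868 and 3493 in BCS EPLMs, so the groups did not overlap, and it fell by 0.86 (SE 0.09, limma adjusted p = 0.00108). Gusb, the β-glucuronidase gene, had intensities of 2230, 2115 and 2352 in WT and of 1377, 1781 and 1669 in BCS EPLMs, and Man2b1, the α-mannosidase gene, of 3815, 4332 and 4120 and of 2997, 2705 and 3435. Neither overlapped between genotypes and neither passed, with log2 changes of -0.48 (limma adjusted p = 0.0633) and -0.43 (limma adjusted p = 0.0568). Naglu, which acts on heparan sulfate, was dim, at 69.7, 71.9 and 85.9 in WT and 59.1, 54.7 and 49.6 in BCS EPLMs. Its log2 change was -0.47 (limma adjusted p = 0.189). The sialidase gene Neu1, the β-galactosidase gene Glb1 and the α-galactosidase gene Gla overlapped between genotypes, with log2 changes of -0.29, -0.08 and 0.25. Neu1 and Gla had intensities between 27.6 and 56.1 on all 6 arrays, close to the median of 20, so that little signal over background stood behind their values.

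In lipid handling, the genes for cholesterol export and for the saposins fell and Ppt1 rose. Npc1, the gene for the membrane protein that passes cholesterol out of the lysosome, had intensities of 2667, 2395 and 2725 in WT and of 1567, 1283 and 1317 in BCS EPLMs. It fell by 0.90 (SE 0.12, limma adjusted p = 0.00285). Npc2, whose soluble product hands cholesterol to NPC1, had intensities of 17128, 18800 and 18725 in WT and of 12733, 10574 and 11573 in BCS EPLMs, and fell by 0.65 (SE 0.07, limma adjusted p = 0.00135). Both Niemann-Pick genes were thus lower on each BCS array than on each WT array. Psap, the precursor gene of the saposins that present sphingolipids to their hydrolases, had intensities of 18041, 19037 and 17830 in WT and of 12695, 9968 and 10603 in BCS EPLMs, and fell by 0.73 (SE 0.09, limma adjusted p = 0.00152).

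The lipid hydrolases themselves were less uniform. Asah1, the acid ceramidase gene, had intensities of 4107, 5592 and 5757 in WT and of 3506, 3075 and 3778 in BCS EPLMs, which did not overlap, and a log2 change of -0.57 (limma adjusted p = 0.0528). The fit without WT replicate 1, the lowest WT array for this gene, gave an adjusted p under 0.05. Smpd1, the acid sphingomyelinase gene, and Lipa, the acid lipase gene, overlapped between genotypes, with log2 changes of -0.16 (95% interval -0.48 to 0.17) and -0.10 (95% interval -0.43 to 0.22). Ppt1, which removes fatty acids from proteins, had intensities of 2936, 3488 and 3342 in WT and of 5148, 5570 and 4192 in BCS EPLMs. All BCS arrays were above all WT arrays, and the log2 change was 0.60 (SE 0.12, limma adjusted p = 0.0219). This call was lost without WT replicate 1, WT replicate 3, BCS replicate 1 or BCS replicate 2 (adjusted p from 0.0652 to 0.0839), and another probe set of Ppt1 gave a log2 change of 0.49 (limma adjusted p = 0.0995).

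Of 5 lysosomal membrane genes, 3 fell. Cd68, a heavily glycosylated membrane protein that is used as a macrophage marker and is also found in plasmacytoid dendritic cells, had intensities of 1441, 2124 and 1688 in WT and of 566, 475 and 598 in BCS EPLMs. The groups were far apart, with a log2 change of -1.67 (SE 0.17, limma adjusted p = 0.000751). Lamp2, which with LAMP1 forms most of the sugar coat of the lysosomal membrane and serves in autophagy, had intensities of 17417, 17040 and 17300 in WT and of 10460, 9021 and 9960 in BCS EPLMs. It fell by 0.82 (SE 0.06, limma adjusted p = 0.000173). Lamp1 had intensities of 4759, 4830 and 4913 in WT and of 3640, 3105 and 3516 in BCS EPLMs. Its log2 change of -0.50 (SE 0.09, limma adjusted p = 0.0116) did not pass without WT replicate 3 (adjusted p = 0.0551). Both LAMP genes were lower on every BCS array. Mcoln1, the gene for a calcium channel of the lysosome, was at 436, 398 and 407 in WT and at 375, 324 and 272 in BCS EPLMs. The log2 change of -0.36 had an adjusted p of 0.297 from limma. Scarb2, which encodes LIMP-2, the receptor that carries glucocerebrosidase to the lysosome, overlapped between genotypes with a log2 change of -0.27 (limma adjusted p = 0.341).

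Neither of the proton pump genes on the list passed. Atp6v1a, the catalytic subunit gene, had intensities of 3074, 3257 and 3470 in WT and of 2739, 2227 and 2199 in BCS EPLMs, and a log2 change of -0.46 (95% interval -0.72 to -0.20, limma adjusted p = 0.0538). Atp6v0d1, a subunit gene of the membrane part, was at 2433, 2927 and 2444 in WT and at 2421, 2088 and 2254 in BCS EPLMs, with a log2 change of -0.20 (95% interval -0.46 to 0.05). Neither gene overlapped between genotypes, although for Atp6v0d1 the highest BCS array and the lowest WT array were nearly equal. Grn, whose product progranulin is split into granulins in the lysosome, had intensities of 21884, 21798 and 22822 in WT and of 15561, 13714 and 13328 in BCS EPLMs. It fell by 0.65 (SE 0.06, limma adjusted p = 0.000599). Tfeb, the gene for the transcription factor, was dim, at 78.5, 107 and 86.1 in WT and at 71.3, 53.2 and 55.9 in BCS EPLMs. Its ranges did not overlap, and its log2 change of -0.58 did not pass (95% interval -1.03 to -0.13, limma adjusted p = 0.153).

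The mice of a genotype resembled each other for these genes. The coefficient of variation had a median of 6.06% over the 33 genes in WT EPLMs, with a range from 1.09% to 19.7%, and of 10.3% in BCS EPLMs, with a range from 3.56% to 20.9%. The median deviation of the 33 genes from their means over the 6 arrays was 0.23, 0.30 and 0.32 on the log2 scale for WT replicates 1 to 3 and -0.16, -0.38 and -0.33 for BCS replicates 1 to 3. BCS replicate 2 was the lowest array for 21 of the 33 genes and WT replicate 2 the highest for 15. Of the 17 genes that did not pass, 9 had lower BCS ranges without overlap, against 14.2% of all genes. The share was 18.9% among genes above the array median on at least 1 array of each genotype, and both shares include genes that passed. Of the 17, 5 (Asah1, Atp6v1a, Man2b1, Gusb and Ctsd) had a limma adjusted p between 0.05 and 0.1.

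**Figure D3:**
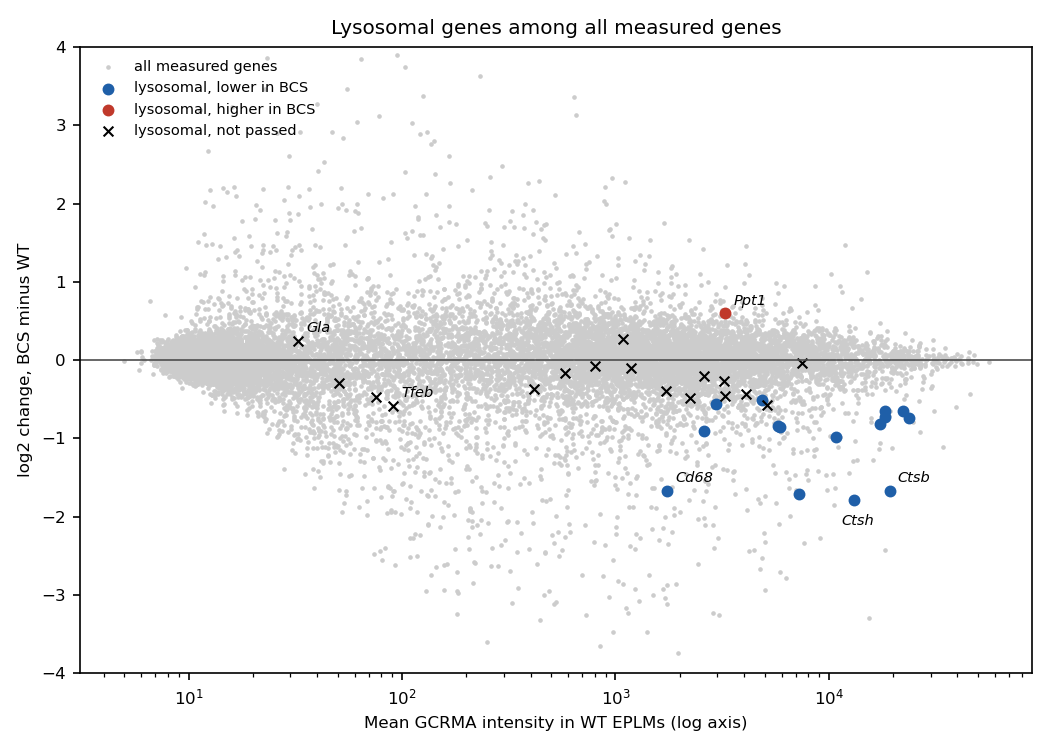
Log2 change (BCS minus WT EPLMs) against the mean WT intensity on a log axis, with the lysosomal genes drawn over all other genes in grey; 18 genes lie beyond the vertical axis. The genes that fell all have a WT mean over 1000, and the 7 lysosomal genes below that level did not pass.

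Further probe sets gave a second reading of the same genes. The 33 genes had 71 probe sets with 1 symbol, of which 31 fell and 1 rose, against 3.25% and 2.24% of all probe sets. Among the 38 that were not the brightest of their gene, 16 fell and 0 rose, and 7 were below the array median on all 6 arrays. Of the genes with several probe sets, 8 had at least 2 that passed, all of them lower: Ctsb, Ctsh, Ctsz, Grn, Lamp2, Npc2, Psap and Tpp1. All 5 probe sets of Ctsb fell, by log2 changes from -1.67 to -2.93. In 7 of the 8 genes the brightest probe set had the smallest change, as in Grn with -0.65 against at most -1.41, and in Npc2 with -0.65 against at most -1.82. Ctsh was the exception, at -1.78 and -1.77. For these 7 genes the sizes given above are therefore the smallest among their probe sets that passed. The brightest probe sets of Lamp2, Lipa, Mcoln1 and Grn are of a class that can also match other transcripts, and the other 3 probe sets of Lamp2 fell as well, with the largest change at -1.06.

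**Figure D4:**
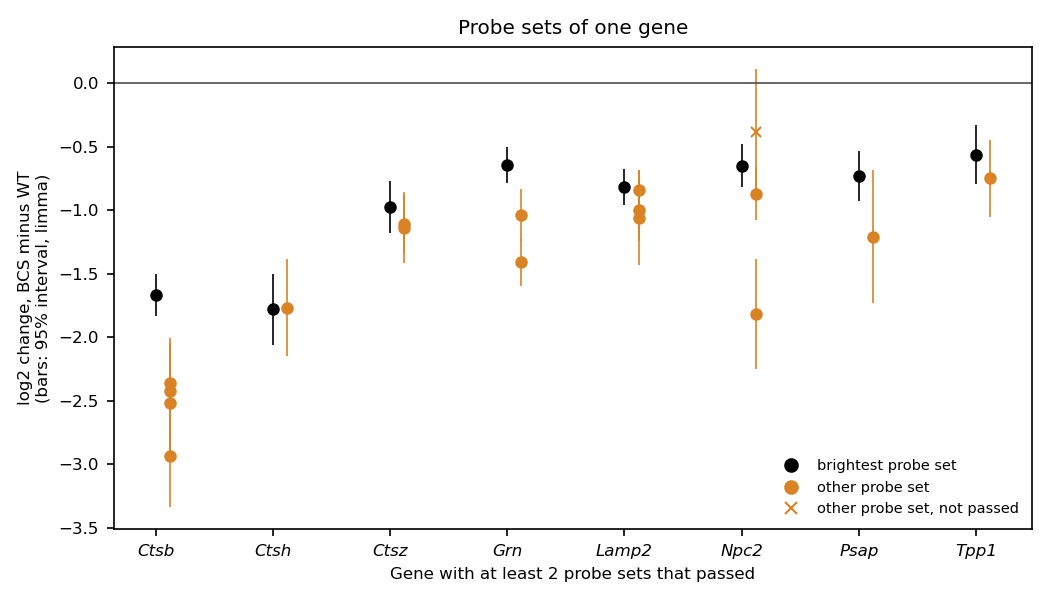
Log2 change (BCS minus WT EPLMs) of each single-symbol probe set of the 8 lysosomal genes with at least 2 probe sets that passed, with 95% intervals from limma as bars, the brightest probe set of each gene in black and a cross for 1 probe set of Npc2 that did not pass. The probe sets of Ctsb spread from -2.93 to -1.67, all below 0.

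The rest of the pathway was read from lists of 138 other lysosomal genes, of which 126 were measured. In these, 29 fell (23.0%) and 6 rose (4.76%), with a median log2 change of -0.25, against 4.70% and 3.15% of all genes and 7.39% and 4.92% of those above the array median. The share that rose was thus close to that over all genes. Leaving out 1 array gave 17 to 28 lower genes, with 539 to 811 of all 18193 genes lower in these fits. Leaving out WT replicate 2 and BCS replicate 2 together gave 10, with 358 of all 18193 genes lower. The main fit called 855 of all genes lower. Other hydrolases were lower in 8 of 29 genes and higher in 1. Those that fell included the dipeptidyl peptidase gene Dpp7 (-1.50), the serine carboxypeptidase gene Scpep1 (-1.27) and the sialic acid esterase gene Siae (-1.10), and Acp5, the tartrate-resistant acid phosphatase gene known from osteoclasts, rose by 1.71. Activators and maturation factors fell in 4 of 9 genes: the thiol reductase gene Ifi30 (-1.53), which serves antigen processing, the prenylcysteine oxidase gene Pcyox1 (-0.69), the GM2 activator gene Gm2a (-0.60) and Ostm1 (-0.51), a partner of a chloride transporter. Gm2a thus fell together with Hexa, whose product it assists. Membrane proteins and transporters fell in 6 of 25 genes, among them the cation channel gene Tpcn1 (-0.96), the nucleoside transporter gene Slc29a3 (-0.81) and the amino acid transporter gene Slc36a1 (-0.75), and Laptm4b rose by 0.55. Several of these calls did not hold when 1 array was left out. Tpcn1, Slc36a1 and Laptm4b each lost theirs in 5 of the 6 fits without 1 array, Slc29a3, Siae and Ostm1 in 4, and Gm2a in 3.

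The shares over all genes were again 4.70% lower and 3.15% higher, and 7.39% and 4.92% among those above the array median. Other subunits of the proton pump fell in 5 of 17 genes and rose in 0. Atp6v0b (-0.66), Atp6v0e (-0.61), Atp6v1d (-0.60) and Atp6v1g1 (-0.38) had the largest changes of these 5. Atp6v0b did not pass without WT replicate 2 or WT replicate 3. The Atp6v1g1 call was lost with the mean of its probe sets. Genes that sort proteins to the lysosome fell in 2 of 25, a share close to that of all genes above the array median. These were the sortilin gene Sort1 (-1.47) and Gnptab (-0.82), which starts the mannose 6-phosphate tag, while the adaptor gene Gga2 rose by 1.35. Among the TFE factors and the mTOR pathway that holds them in the cytoplasm, 3 of 13 fell and 2 rose. Mitf, a relative of Tfeb, had intensities of 299, 221 and 353 in WT and of 97.7, 65.2 and 69.6 in BCS EPLMs, without overlap. It fell by 1.89 (SE 0.24, limma adjusted p = 0.00215). Tfec, a further relative, also passed, but it was at 20.7, 32.8 and 25.1 in WT and at 13.2, 15.8 and 14.1 in BCS EPLMs, below the array median, so no size of its fall is given, and its call was lost in 5 of the 6 fits without 1 array. Rptor, a gene of amino acid signaling to mTOR, rose by 1.37. Its call was lost with the mean of its probe sets, and its log2 change was as low as 0.46 over the alternatives. Rragd, of the same pathway, had intensities of 83.8, 285 and 60.8 in WT and of 512, 823 and 499 in BCS EPLMs. Its log2 change of 2.38 passed in the fit of all 6 arrays and not in 5 of the 6 fits without 1 array (log2 change 1.94 to 3.04 over the 6 fits). Protease inhibitors fell in 1 of 8 genes, the cystatin C gene Cst3 (-0.86), and rose in 1, Serpinb1a (0.86). With the methods' t-test, 2 of the 126 genes fell and 1 rose after adjustment, against 83 and 52 of all 18193 genes.

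Markers of dendritic cells, and a smaller share of those of monocytes, macrophages and NK cells, fell in BCS EPLMs. The share that fell was 4.70% over all genes and 7.39% over those above the array median. Means were lower for 11 of 12 plasmacytoid and 7 of 8 conventional dendritic cell markers. They were lower for 14 of 14 monocyte and macrophage and 9 of 9 NK cell markers, against 48.3% of all genes. Many lysosomal genes are abundant in dendritic cells and macrophages. In bulk samples such as these, fewer cells of a type and less RNA per cell cannot be told apart. Of 12 measured plasmacytoid dendritic cell markers 8 fell, among them Ccr9 (-3.29), Bst2 (-2.32) and Cox6a2 (-1.83). Pacsin1 fell from 571, 721 and 1045 in WT to 37.9, 29.5 and 34.3 in BCS EPLMs, so close to the array median that the size of its fall is not well determined. The summed intensity of the 12 genes was 95048 to 105336 in WT and 48918 to 65691 in BCS EPLMs. Conventional dendritic cell markers fell in 4 of 8 genes, Ccr7 (-1.74), Clec10a (-1.70), Itgax (-1.19) and Sirpa (-0.73), with sums of 7067 to 7678 in WT and 2897 to 3192 in BCS EPLMs. The Sirpa call was lost with the mean of its probe sets and without WT replicate 2 and BCS replicate 2. Monocyte and macrophage markers fell in 3 of 14 genes, Ccr2 (-3.16), Csf1r (-2.40) and Cx3cr1 (-2.26). The Ccr2 call was lost without any 1 of the 3 WT arrays (log2 change -3.65 to -2.20 over the fits without 1 array). Their sums were 6152 to 14888 in WT and 2131 to 6725 in BCS EPLMs, which overlap, and Cd14 and Marco were below the array median on all 6 arrays. NK cell markers fell in 2 of 9 genes, Klrd1 (-2.34) and Klrk1, whose BCS values lay below the array median, with sums of 8260 to 14905 in WT and 1473 to 4264 in BCS EPLMs. The summed intensity of the 33 lysosomal genes was 202672 to 215974 in WT and 116485 to 134351 in BCS EPLMs. The part of these cells in the lower lysosomal values was not tested.

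B lineage markers moved the other way. Of 7 measured genes 5 rose, against 3.15% of all genes and 4.92% of those above the array median. Igll1 (1.47), Cd79b (1.23), Pax5 (1.12) and Ebf1 (0.95) had the largest changes. The calls of Igll1 and Pax5 were each lost in 4 of the 6 fits without 1 array and that of Ebf1 in 2. The summed intensity of the 7 genes was 34192 to 60095 in WT and 81790 to 88162 in BCS EPLMs. Of the receptors of early progenitors, Flt3 fell by 1.22 and Il7r had a log2 change of -0.23 that did not pass. Erythroid and megakaryocyte markers passed in 0 of 7 genes, with a sum of 6760 on WT replicate 2 and of 196 to 406 on the other 5 arrays. Granulocyte markers had sums that overlapped between genotypes and passed in 0 of 10 genes. Their means were lower in BCS EPLMs for 9 of 10 genes, against 48.3% of all genes, with a median log2 change of -0.26. Their sums were highest on WT replicate 2 and BCS replicate 2, and the part of granulocytes in the lysosomal values was not tested.

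**Figure D5:**
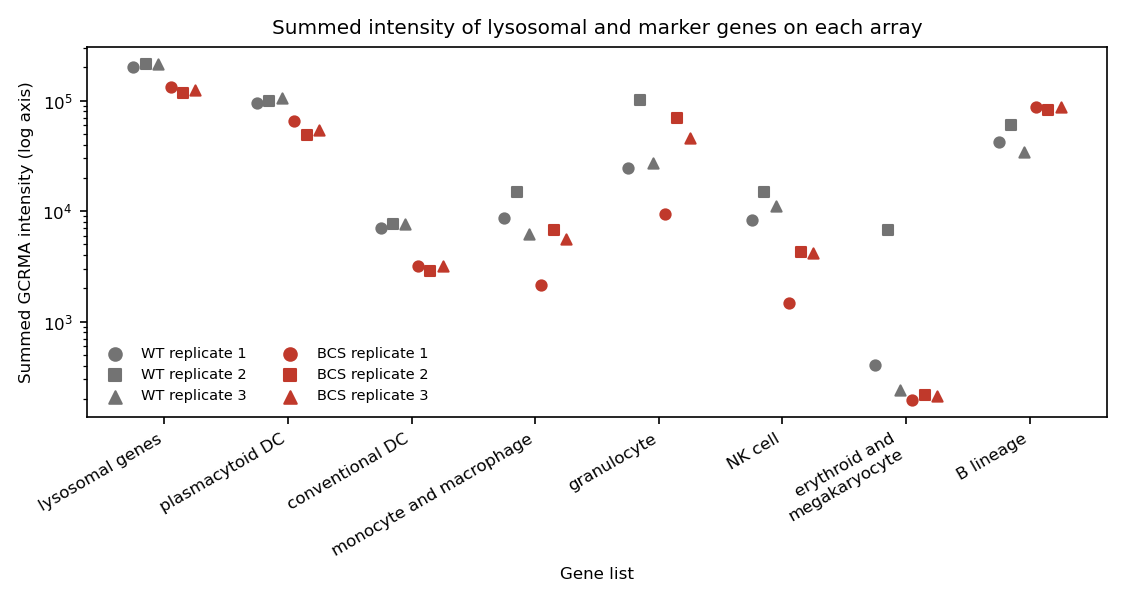
Summed intensity of the lysosomal genes and of each marker list on each of the 6 EPLM arrays, on a log axis, with 1 point per mouse. WT and BCS points are apart for the lysosomal genes, both dendritic cell lists and the NK cell list, and for the B lineage list with BCS higher. They are also apart for the erythroid and megakaryocyte list, narrowly, with 239 as the lowest WT and 217 as the highest BCS sum. They overlap for the granulocyte and the monocyte and macrophage lists.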

How the data were processed

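RNA of sorted EPLMs from 3 WT and 3 BCS mice was measured on Affymetrix mouse GeneChips, and 7 arrays of large preB cells belong to the same series. The authors deposited linear GCRMA intensities in which every array has a median of 20 (version of GCRMA not given in the sources used here). Values of 64 control features were left out, which left 45037 probe sets, 34945 of them with 1 gene symbol in the platform annotation, 932 with several and 9160 with none. The large preB columns were not used: their mean levels correlated with those of the EPLMs with r = 0.0944 over probe sets and r = 0.978 over control features, so their values do not follow the probe set names.

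An offset of 1 was added before log2 was taken. BCS was compared with WT by limma 3.58.1 under R 4.3.3 (lmFit and eBayes, trend on), without covariates and without a filter on low values, with Benjamini-Hochberg adjustment over all probe sets. The script was tested on simulated data. Tests were two-sided, intervals are at 95%, and n is the number of mice. Precision is limited by the number of arrays. The paper's methods name a labelling kit of 2 cycles and the array labels 1 cycle. Arrays with the same replicate number did not deviate together (correlations -0.03, 0.05 and 0.09), so the numbers were not taken as pairs. The lysosomal genes and all other lists were chosen with earlier results of these data known. All lysosomal genes are named, and from each other list up to 4 passing genes of largest change, with Pou2af1 and genes of the gate as checks, of which 1 is not reported here. Promoter sequences come from RefSeq (GRCm38.p6) and were searched in Python 3.11.15. Alternatives were the methods' t-test, robust variances or no trend in eBayes, leaving out dim probe sets, quantile normalization, centring, array weights, an offset of 16, the replicate block, another probe set per gene, an adjusted p under 0.01 and leaving out each array. Leaving out WT replicate 2 and BCS replicate 2 together was added after seeing the data.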

Additional observations from a re-analysis of the deposited data

How the results depend on the processing

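Means were lower in BCS EPLMs for 28 to 30 of the 33 lysosomal genes in every alternative, while the counts of calls depended on the test. The methods' t-test with adjustment left 3 lysosomal genes lower and 0 higher, 83 of all genes lower and 52 higher, and 2 of the other lysosomal genes lower and 1 higher. The 1 higher lysosomal gene, Ppt1, was lost (0 higher) with eBayes without trend, with the mean of a gene's probe sets and at an adjusted p under 0.01, a threshold that also left 428 of all genes lower and 220 higher and 15 of the other lysosomal genes lower. Leaving out each array in turn gave 13 to 16 lysosomal genes lower, 0 to 1 higher, a median log2 change from -0.56 to -0.48, 539 to 811 of all genes lower, 312 to 525 higher, and 17 to 28 of the other lysosomal genes lower and 4 to 5 higher. Without WT replicate 2 and BCS replicate 2, a setting chosen after seeing the data, 13 lysosomal genes were lower and 0 higher, the median was -0.43, 358 of all genes were lower and 272 higher, and 10 of the other lysosomal genes were lower, with fewer arrays in the fit. With the replicate block 15 lysosomal genes were lower and no call of a lysosomal gene changed, 712 of all genes were lower and 422 higher, and 23 of the other lysosomal genes were lower and 5 higher. Of the 15 calls, 3 (Ctsb, Ctss and Lamp2) were kept in every alternative, 9 were lost with the t-test only and 3 elsewhere too: Ctsa with the mean of its probe sets (log2 change -0.35), Lamp1 and Tpp1 at the stricter threshold or without single arrays. More genes were called lower with robust variances (19) and the filter on dim probe sets (20).

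The sign turned for 3 genes that had not passed. Ctsc was at 0.037 with its probe set of largest spread, at 0.0012 without WT replicate 2, at 0.02 without BCS replicate 2 and at 0.052 without both, with -0.064 as the lowest value without 1 array. Mcoln1 was at 0.0054 with its probe set of largest spread. Kit was at 0.034 without WT replicate 3, at 0.0039 without BCS replicate 1 and at 0.0098 without BCS replicate 2, with -0.046 as the lowest value without 1 array. Where no cause is given, the cause was not tested. Probe sets near the array median of 20, such as those of Gla and Neu1, carry little signal over background. Those of Naglu and Tfeb were dim as well, though further above the median.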
